A study of Mus musculus with 8 samples.

Results

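Immediate early genes in hand-picked cortical interneurons were taken as 10 named genes of a single-cell count table: Fos, Fosb, Junb, Egr1, Arc, Npas4, Nr4a1, Ier2, Dusp1 and Bdnf. Members were selected by gene name from 23335 gene names, and all transcripts of a name were summed. Of the 10 members, 9 had at least 1 count, and Bdnf had none. Over all cells, 16531 gene names had a count and 6804 had none.

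Immediate early genes are transcribed within minutes of a stimulus, without the need for new protein synthesis. In neurons, calcium entry and kinase signaling act on transcription factors that are already present, such as CREB and SRF, which bind the promoters of these genes. Many of them are widely used as marks of recent neuronal activity. The same genes are also known to respond to the slicing, enzyme treatment and trituration that free cells from tissue.

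The study asked how reproducible co-expression is between batches of single cells of the same type. Labeled cells of frontal cortex were picked by hand after slicing, incubation with blockers of synaptic transmission and sodium channels, mild protease and trituration, and 128 cells were processed in 8 library batches of 16 cells. Chandelier cells (ChC), which synapse on the initial part of pyramidal cell axons, came from Nkx2.1-CreER; Ai14 mice. Parvalbumin cells (Pv) came from Pv-ires-Cre; Ai14 mice. Ai14 is a reporter that gives a red fluorescent protein wherever Cre has acted. The titles of all samples call the mice wild type (WT). Batches 1 and 2 came from ChC animal 1 at postnatal day 31, and batches 3 and 4 from ChC animal 2 at postnatal day 32. Batches 5 and 6 came from Pv animal 3 at postnatal day 29, and batches 7 and 8 from Pv animal 4 at postnatal day 35. All 4 animals carry the label female, no experimental treatment was given, and the labels of all samples name 150 ul of 20 mg/ml tamoxifen at E17.5 of embryonic life, an agent that the inducible Nkx2.1-CreER line needs and the Pv-ires-Cre line does not. Nkx2.1-CreER marks cells born from progenitors that express the driver at the time of induction, and Pv-ires-Cre marks any cell that has expressed parvalbumin, so neither line is specific to a cell type by itself. Line and flow cell changed together with cell type, and the effects of the 3 cannot be told apart. Age and sequencing lane went with the animal, so these cannot be told apart either.

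Counts are of molecules marked by a random tag before amplification (UMI), given per transcript. Transcripts of a gene can share molecules, so sums over them count some molecules more than once. Of the 5194 transcripts with counts in genes with several, 1413 repeated the counts of an earlier transcript of their gene. With 1 transcript per gene, 85.4% of the summed UMI were kept. Each member with counts had 1 transcript, so this touches the members through the totals, and the mean of Fos in ChC was 1394 CPM with sums and 1636 CPM with 1 transcript per gene. With the transcripts of each gene summed, ChC batches 1 to 4 held 527743, 657957, 2898413 and 1307666 UMI. Pv batches 5 to 8 held 456458, 501563, 370238 and 921212 UMI. Single ChC cells had from 1053 to 606191 UMI, with a median of 39200, and single Pv cells from 2325 to 108081, with a median of 27116. After removal of 2 columns without counts, 63 ChC and 63 Pv cells were used, of which 49 and 59 held at least 10000 UMI. Levels are given as counts per 1000000 UMI (CPM) of the summed cells of a batch. A count of 0 allows up to 3 counts, which is 5.68, 4.56, 1.04 and 2.29 CPM in batches 1 to 4 and 6.57, 5.98, 8.10 and 3.26 CPM in batches 5 to 8. These limits cover counting error only.

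The labels were checked against fixed marker lists. All 8 markers of interneurons from the medial ganglionic eminence had counts, and their summed level lay between 5051 and 9780 CPM over the 8 batches. Erbb4 was the highest in mean CPM over the batches, but Slc32a1 lay above it in Pv batches 5, 6 and 8. Pvalb was at 125, 166, 91.8 and 74.2 CPM in ChC batches and at 1413, 656, 573 and 1053 CPM in Pv batches, and the cell types did not overlap. Xist, which female cells transcribe from the inactive X chromosome, was found in 7 batches at between 91.0 and 814 CPM. In batch 6 it was at 0, where the depth allows up to 5.98 CPM, although batch 5 of the same animal had 283 CPM. The Y-linked gene Kdm5d was at 49.8 CPM in batch 6 and 24.5 CPM in batch 3, and at or under 2.70 CPM in the other batches. Ddx3y and Uty, also Y-linked, were at 5.43 to 29.7 CPM in every batch, and Eif2s3y had 2 UMI in all. Batch 6 thus goes against its label for Xist, and Pv means, shares and fits of several members are also given without it.

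The members had 13 transcripts in the table, 1 for each of 9 members and 4 for Bdnf. In mm9, Fos (NM_010234) spans 86814851 to 86818219 of chromosome 12, plus strand. Junb (NM_008416) lies on chromosome 8 from 87500808 to 87502647, Ier2 (NM_010499) on chromosome 8 from 87185230 to 87186751 and Dusp1 (NM_013642) on chromosome 17 from 26642536 to 26645417, all on the minus strand. Nr4a1 (NM_010444) lies on chromosome 15 from 101097277 to 101105225 on the plus strand, and Arc (NM_018790) on the same chromosome from 74499513 to 74503000 on the minus strand. The ranges are whole transcripts, untranslated parts and introns included. Whether counting used the strand is not given in the sources used here, so reads of a gene and of an antisense partner cannot be told apart.

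Fos, which encodes a subunit of the AP-1 transcription factor, had 10817 UMI, of which 10249 were in ChC cells. It was at 1239, 50.2, 2487 and 1801 CPM in ChC batches 1 to 4, and at 414, 532, 0 and 122 CPM in Pv batches 5 to 8. ChC batches averaged 1394 ± 1031 CPM (SD, n = 4) and Pv batches 267 ± 248 CPM (SD, n = 4). The cell types overlapped, because ChC batch 2 lay below 3 Pv batches. Batch 2 and batch 7 each lay far below the other batch of their animal. Without batch 6 the Pv mean was 179 ± 213 CPM (SD, n = 3). Summed per animal, Fos was at 579 and 2273 CPM in the ChC animals and at 476 and 86.7 CPM in the Pv animals. Of the 36 genes of the table with at least as many UMI as Fos, itself included, 2.78% were at 0 in any batch, and Fos was the only one.

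Junb and Fosb also belong to AP-1. Junb, a Jun family partner of Fos proteins, was at 49.3, 44.1, 63.1 and 104 CPM in ChC batches and at 0, 0, 5.40 and 0 CPM in Pv batches. Its 2 UMI in Pv cells fell in 2 cells of batch 7. Every ChC batch lay above every Pv batch. Fosb, a close relative of Fos, had 40 UMI, of which 38 were in ChC cells and 2 in cells of batch 5. Its ChC batches ran from 3.79 to 13.7 CPM, and the Pv batches with counts of 0 had floors of up to 8.10 CPM, so no order between the cell types could be read from Fosb at this depth.

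Egr1, a zinc finger transcription factor, was at 39.8, 199, 245 and 273 CPM in ChC batches and at 0, 0, 13.5 and 1.09 CPM in Pv batches. ChC batches averaged 189 ± 104 CPM (SD, n = 4) and Pv batches 3.65 ± 6.59 CPM (SD, n = 4), or 4.86 ± 7.503 CPM (SD, n = 3) without batch 6, and they did not overlap. Nr4a1, an orphan nuclear receptor, was at 20.8, 129, 71.4 and 193 CPM in ChC batches and at 26.3, 17.9, 0 and 0 CPM in Pv batches. ChC batch 1 lay between the values of Pv batches 5 and 6. Without batch 6 the Pv mean of Nr4a1 was 8.76 ± 15.2 CPM (SD, n = 3). Npas4, a transcription factor known for its dependence on calcium entry in neurons, had 104 UMI. It was at 3.79, 16.7, 29.3 and 0 CPM in ChC batches and at 0, 0, 0 and 6.51 CPM in Pv batches, and the cell types overlapped.

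Dusp1, a dual-specificity phosphatase, was at 64.4, 102, 136 and 163 CPM in ChC batches and at 0, 16.0, 0 and 14.1 CPM in Pv batches. ChC batches averaged 116 ± 42.7 CPM (SD, n = 4) and Pv batches 7.52 ± 8.71 CPM (SD, n = 4), or 4.70 ± 8.15 CPM (SD, n = 3) without batch 6. The lowest ChC batch lay above the highest Pv batch. Ier2, a small nuclear protein, was at 0, 6.08, 241 and 20.6 CPM in ChC batches and at 0 in all 4 Pv batches. Of its 730 UMI, 699 were in batch 3. Over all cells of a type, Ier2 was at least 101.5-fold higher in ChC than in Pv cells, against a floor of 3 counts over the Pv cells. Without batch 3 this was at least 9.32-fold, from 31 UMI, without batch 6 at least 78.88-fold and without batch 8 at least 59.94-fold, values added with the data known. Summed per animal, Ier2 was at 3.37 CPM in ChC animal 1, from 4 UMI, and at 173 CPM in ChC animal 2. The floor over the Pv cells was 1.33 CPM, so the pooled fold rests on ChC animal 2.

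Among the effectors, Arc, which acts at synapses in the endocytosis of AMPA receptors, had 100 UMI. It was at 0, 3.04, 21.05 and 22.2 CPM in ChC batches and at 0, 1.99, 18.9 and 0 CPM in Pv batches, and the cell types overlapped. Bdnf, a secreted neurotrophin, had no UMI in any of the 126 cells. This allows up to 0.393 CPM over all cells, and a share of cells with a UMI of up to 2.38% by counting error alone, with cells taken as independent. Cells of a batch are not replicates, so these limits do not cover the spread between batches or animals. The 4 Bdnf transcripts, NM_007540, NM_001048139, NM_001048141 and NM_001048142, begin at different starts and end at the same base, 109567200 of chromosome 2 in mm9.

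**Figure D1:**
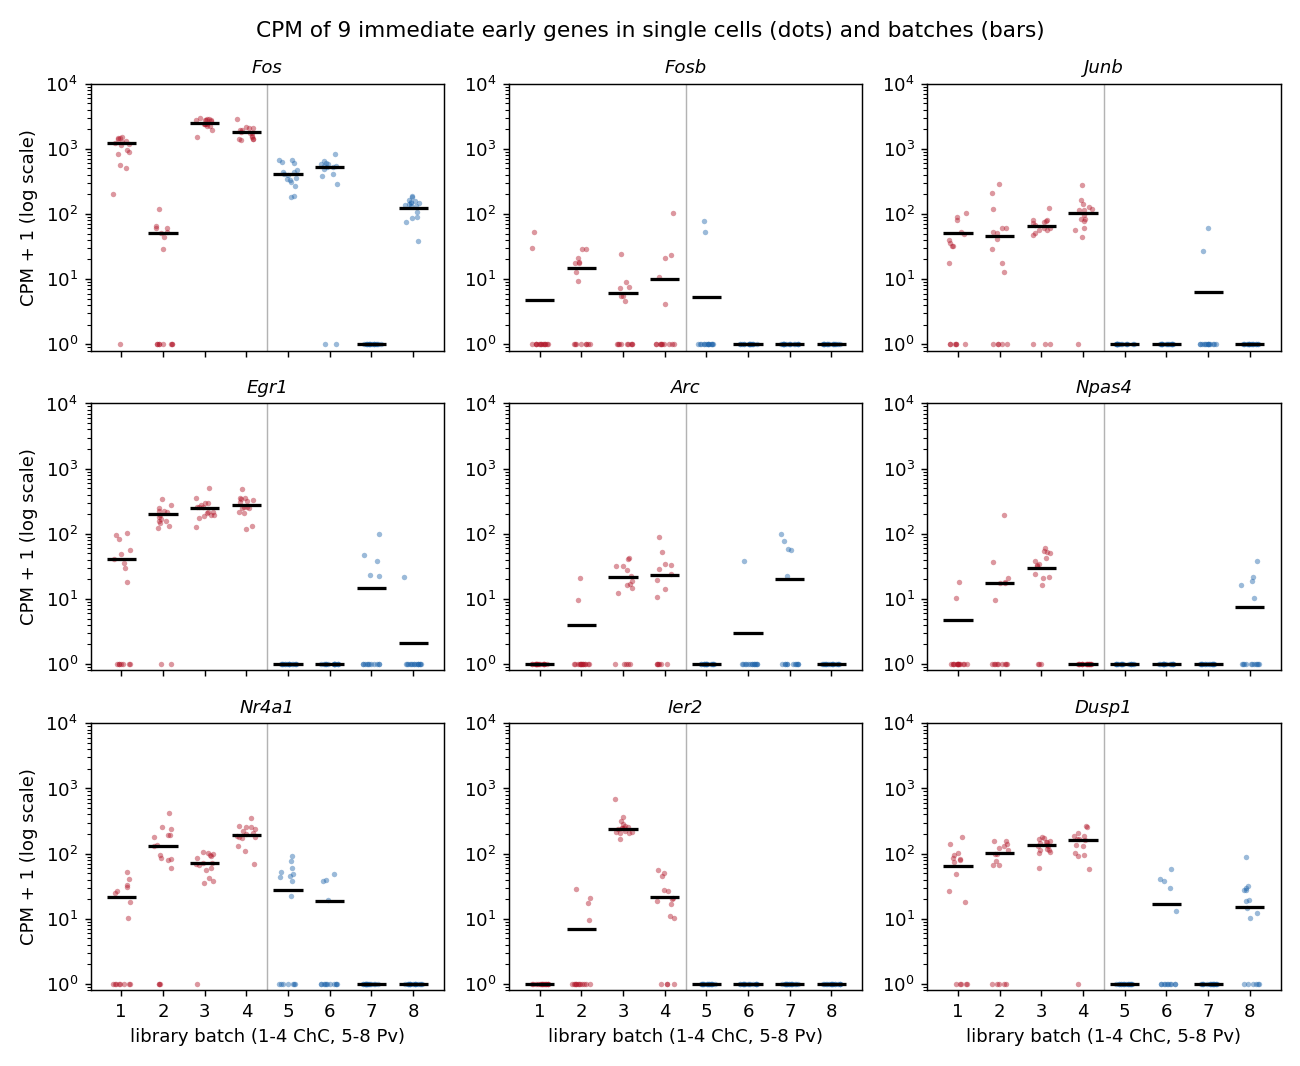
Each panel plots 1 of 9 immediate early genes, with the 8 library batches on the x axis (1 to 4 ChC in red, 5 to 8 Pv in blue) and CPM + 1 on a log y axis, dots for single cells and black bars for batch values. Fos runs from 1535 to 2949 CPM in batch 3 and from 0 to 1535 CPM in batch 1, and is at 0 in all 16 cells of batch 7.

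All ChC batches lay above all Pv batches for 3 of the 10 members, Junb, Egr1 and Dusp1, against 1.58% of the 16531 genes with a count. No member had all Pv batches above all ChC batches, a pattern that 246 genes (1.49%) showed. The batches of a cell type came from 2 animals, so they are not 4 independent mice.

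The comparison of cell types was made over animals, 2 against 2, with edgeR's quasi-likelihood test on summed UMI and Benjamini-Hochberg adjustment over 9829 genes. No gene passed at an adjusted p under 0.05, so 0% of the genes and 0 of the 10 members were called. The lowest adjusted p of any gene was 0.185, and 616 genes had an unadjusted p under 0.05. Of the members, 6 passed the filter on low counts, and Fosb, Arc, Ier2 and Bdnf did not. A gene could pass that filter through the cell type in which it was high. The fitted log2 ratio of ChC to Pv was 6.37 for Egr1 (SE 1.54, adjusted p = 0.598), 6.20 for Junb (SE 1.81, adjusted p = 0.598) and 3.69 for Dusp1 (SE 1.20, adjusted p = 0.673). Since edgeR gives no SE, the SE here and below is the absolute log2 ratio divided by the square root of the F statistic. For genes at or near 0 on 1 side of a comparison it is no true standard error. Junb rests on 2 UMI and Egr1 on 6 UMI in Pv cells, so their fitted values and SE depend on the prior count. For Fos it was 2.29 (SE 0.95, adjusted p = 0.759). Nr4a1 had a value of 3.07 (SE 1.81, adjusted p = 0.884) and Npas4 of 2.80 (SE 1.71, adjusted p = 0.900). Egr1, Junb, Dusp1 and Fos had an unadjusted p under 0.05 and were higher in ChC, where 3.61% of the genes tested were.

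The call depended on the test. DESeq2 called 174 genes, 99 of them higher in ChC (1.01% of the 9800 genes with an adjusted p), and these held 3 members: Egr1 (adjusted p = 0.00102), Ier2 (adjusted p = 0.0103) and Junb (adjusted p = 0.0215). By DESeq2 Dusp1 had an adjusted p of 0.0513. Without the filter on low counts edgeR called 80 genes, 46 of them higher in ChC (0.278%), with Egr1 (adjusted p = 0.00898), Ier2 (adjusted p = 0.0182) and Fos (adjusted p = 0.0255) among them. Over all alternatives the adjusted p by edgeR, DESeq2 or limma ran from 0.00102 to 0.834 for Egr1, from 0.0215 to 0.862 for Junb and from 0.0255 to 0.907 for Fos. Without batch 6, no gene passed by edgeR, and the log2 fold changes were 6.17 for Egr1, 5.95 for Junb, 4.47 for Dusp1 and 2.39 for Fos. Single animals moved these values, where the lone animal of a cell type was assumed to vary like the others. The log2 fold change of Fos was 2.95 without animal 1, 1.04 without animal 2 and 4.21 without animal 3. Without animal 1 edgeR called 17 of 11691 genes, 12 of them higher in ChC (0.103%), with Fos (adjusted p = 0.0262) and Ier2 (adjusted p = 0.0285) among them. Without animal 4 it called 100 of 11263 genes, 46 of them higher in ChC (0.408%), with Egr1 (adjusted p = 0.0232) among them. No member was called without animal 2 or animal 3.

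Animals of the same line were compared over their library batches, so these p-values measure the spread between batches only. Between ChC animal 2 and animal 1, edgeR called 0 of 9448 genes, or 0% (667 at an unadjusted p under 0.05, 97 by DESeq2). Of the 7 members tested, Ier2 had a log2 fold change of 5.36 (SE 2.30, adjusted p = 0.690) and Fos of 1.64 (SE 1.501, adjusted p = 0.870). With 1 batch left out, Ier2 ran from 2.63 (without batch 3) to 10.07 (without batch 2), and Fos from 0.66 (without batch 2) to 5.47 (without batch 1). Between Pv animal 4 and animal 3, edgeR also called 0 of 9448 genes, or 0% (747 at an unadjusted p under 0.05, 93 by DESeq2). Here the log2 fold change was -7.51 for Nr4a1 (SE 2.42, adjusted p = 0.626), -3.10 for Fos (SE 1.59, adjusted p = 0.626) and 5.35 for Egr1 (SE 2.71, adjusted p = 0.626). Without batch 6 these were -7.79, -2.86 and 5.48, and Dusp1 went from -0.26 to 5.89 with an adjusted p of 0.770. Fos was at -2.11 without batch 7 and at -11.91 without batch 8, when animal 4 had no UMI of it. Nr4a1 was at 0 in animal 4 and Egr1 at 0 in animal 3, so their fitted values and SE depend on the prior count and are no bounds. Fos and Nr4a1 had more counts in animal 3, and Egr1 in animal 4, but none of these differences passed the test.

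Batches labeled as 1 animal, and so as 1 mouse and day of age, were then set side by side. For batches 5 and 6 this rests on the label, and Xist was at 283 CPM in batch 5 and at 0 in batch 6. Fos was 24.7-fold higher in batch 1 than in batch 2, while Egr1 was 5.00-fold higher in batch 2. Ier2 was 11.7-fold higher in batch 3 than in batch 4, while Fos differed 1.38-fold and Egr1 1.11-fold between the same batches. In batch 7 the 0 UMI of Fos stood against 112 UMI in batch 8. On a scale of log2(CPM + 1), the absolute difference between the batches of an animal was taken where a gene reached 100 UMI in the animal, a measure chosen after the data were seen. Its median over genes was 1.47, 1.18, 1.53 and 1.01 in animals 1 to 4. The 11 member values had a median of 0.71 (range 0.16 to 6.94), and 5 of them lay above the median of all genes in their animal. Fos in animal 4 was above 98.7% of the 3092 genes compared there, and Fos in animal 1 above 86.2% of 2721 genes. Among the genes compared, the median difference between batches of an animal thus lay between 1.01 and 1.53, and that of Fos in animal 4 was far larger.

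The number of cells with a UMI was counted in each batch. Fos had a UMI in 15, 8, 16 and 15 cells of ChC batches 1 to 4, and in 16, 13, 0 and 16 cells of Pv batches 5 to 8. Egr1 was detected in 9, 14, 16 and 15 cells of the ChC batches and in 0, 0, 5 and 1 cells of the Pv batches. For Junb these were 10, 11, 13 and 14 ChC cells and 0, 0, 2 and 0 Pv cells. Batches 4 and 6 had 15 cells and the others 16. Fos was thus seen in nearly every cell of 6 batches, in 8 of 16 cells of batch 2 and in no cell of batch 7. Ier2 was detected in all 16 cells of batch 3 and in 0 of 63 Pv cells, which allows a share of up to 4.76% by counting error alone. Batches differed far more than that, as Fos in batches 7 and 8, so the limit does not cover the spread between batches.

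Depth sets these shares in part, so each cell was thinned to 10000 UMI and shallower cells were left out. Fos was then detected in 85.0% ± 30 of ChC cells (SD, n = 4 batches) and in 71.5% ± 47.8 of Pv cells (SD, n = 4), a difference within the spread of either type. Without thinning the shares were 85.9% ± 24.1 and 71.7% ± 48.2. Egr1 was detected in 81.4% ± 25.7 of thinned ChC cells and 3.33% ± 6.67 of thinned Pv cells, and in 85.9% ± 20.7 and 9.38% ± 14.9 without thinning. Dusp1 was at 64.6% ± 14.04 and 13.6% ± 16.0, and at 82.7% ± 16.3 and 23.96% ± 30.1 without thinning. Junb was detected in 37.1% ± 32.9 of thinned ChC cells and 1.67% ± 3.33 of thinned Pv cells, and in 76.5% ± 13.7 and 3.13% ± 6.25 without thinning. Without batch 6 the thinned Pv shares were 64.6% for Fos, 4.44% for Egr1, 10.4% for Dusp1 and 2.22% for Junb. With thinning to 5000 UMI in place of 10000, Dusp1 was at 33.04% in ChC and 3.35% in Pv cells, Egr1 at 63.2% and 3.33%, and Fos at 83.9% and 55.8%.

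Members with a UMI were then counted per cell, a number that sums the detection of single members and does not by itself show co-detection. After thinning, a ChC cell had 4.00 ± 1.49 members with a UMI and a Pv cell 1.02 ± 0.415 (mean of batch means, SD, n = 4). The batch means were 2.18, 3.60, 5.71 and 4.5 members in ChC and 1.27, 1.15, 0.400 and 1.25 members in Pv batches, so the cell types did not overlap. Without batch 6 the Pv value was 0.972. Of the thinned cells, 39 of 49 ChC cells and 1 of 59 Pv cells had at least 3 members, and 12 Pv cells had none. Without thinning the values were 5.67 ± 1.82 and 1.49 ± 0.532, and 8 ChC cells had UMI of all 9 members with counts. No Pv cell had more than 3 members at any depth. These are descriptions over batches, since cells of a batch are not replicates.

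**Figure D2:**
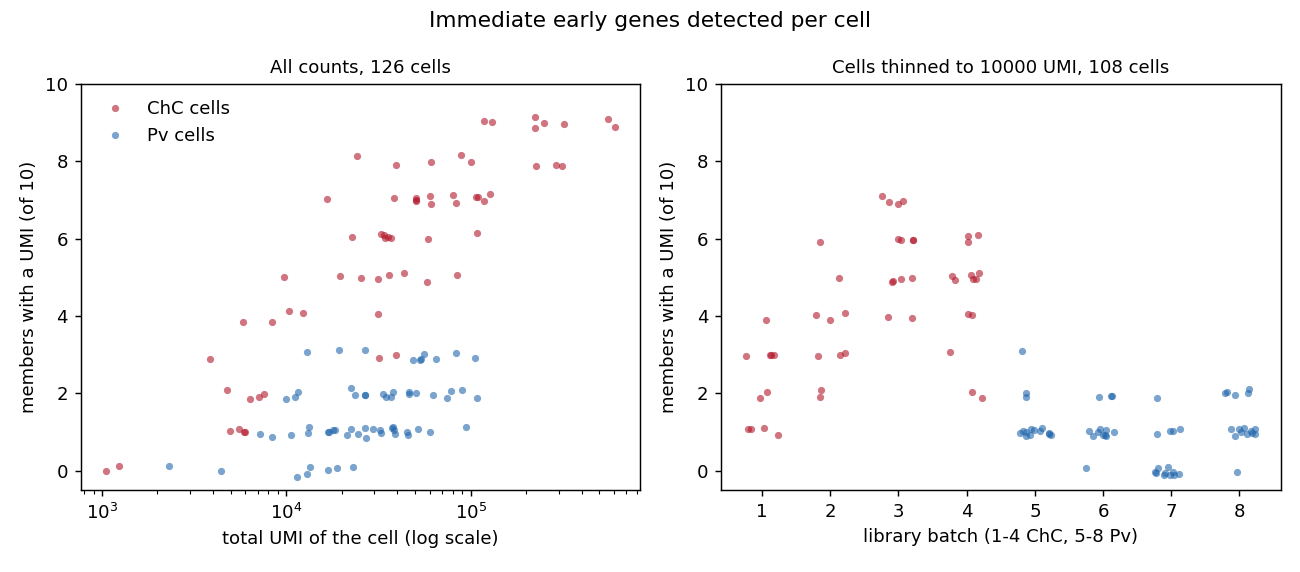
The number of the 10 members with a UMI in each cell is plotted against the total UMI of the cell on a log axis (left, 126 cells) and by library batch after thinning to 10000 UMI (right, 108 cells), with ChC cells in red and Pv cells in blue. Points are shifted slightly so that equal values can be seen, and thinned ChC cells had 1 to 7 members and thinned Pv cells 0 to 3.

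Pairs of members in the same cell were set beside the number that the shares of cells with each gene give alone, taken as their product within each batch and summed. Fos and Egr1 had UMI together in 48 of 63 ChC cells, with 6 cells showing Fos alone, 6 Egr1 alone and 3 neither, beside 46.4 from the shares. In Pv cells they were together in 1 of 63 cells, beside 1 from the shares, while 44 had Fos alone and 5 Egr1 alone. Fos and Dusp1 were together in 49 ChC cells and 15 Pv cells, beside 45.8 and 14.3 from the shares, and no Pv cell had Dusp1 without Fos. After thinning, Fos and Egr1 were together in 35 of 49 ChC cells and 0 of 59 Pv cells, beside 36.2 and 0 from the shares. Joint detection of Fos with Egr1 or Dusp1 was thus near what the shares of each batch give. In ChC cells without thinning, every pair of members with counts lay above its shares, as Junb and Npas4 at 22 beside 16.6. After thinning, ChC pairs lay on both sides, as Junb and Npas4 at 5 beside 3.46 and Ier2 and Dusp1 at 12 beside 12.9. The Pv cells with Egr1 were in batches 7 and 8, and Fos was at 0 in batch 7, so this separation follows the batches.

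The number of members detected was set against the depth of the cell within each batch. The Spearman correlation of the total UMI of a cell with its number of members had a mean of 0.576 over the 8 batches (SD 0.397, range -0.269 to 0.942, 15 or 16 cells each). In the 4 ChC batches it lay between 0.758 and 0.942, and in Pv batches 5 to 8 it was -0.269, 0.707, 0.431 and 0.360. With the summed CPM of the members in place of their number, the mean was 0.140 (SD 0.375). Cells of a batch share the library and its amplification, so these values are descriptions.

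If a few cells of a batch carried most of a gene, its spread between cells would exceed that of sampling. A dispersion index measured this, from the squared gaps between the UMI of each cell and its share by total, each divided by that share, summed and divided by the number of cells less 1. It was taken where a gene reached 100 UMI in a batch. The index is near 1 where molecules are spread over cells in proportion to the totals, and its use was decided once the data had been seen. Its median over genes was 1.21, 1.22, 1.09 and 1.18 in batches 1 to 4 and 1.19, 1.26, 1.58 and 1.21 in batches 5 to 8. The 16 member values had a median of 1.17 (range 0.420 to 4.52). Fos had the highest ones, at 4.52 in batch 3 and 4.05 in batch 4, where the 95th percentile of all genes was 3.00 and 3.52. For the same relative spread the index grows with the UMI of a gene, and Fos had 7207 and 2355 UMI there, so its place among genes with fewer UMI is no measure of relative spread. It was at 2.07 in batch 1 and at 1.45, 1.33 and 0.892 in batches 5, 6 and 8. The 10 values of other members had a median of 0.961 (range 0.420 to 2.24), with Ier2 at 0.824 in batch 3, Egr1 at 1.16 and 1.63 in batches 3 and 4, and Dusp1 at 0.573 and 0.955.

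In terms of levels, Fos ran from 1535 to 2949 CPM over the 16 cells of batch 3, with a median of 2525 CPM. In batch 4 it ran from 1352 to 2842 CPM over 15 cells. Ier2 ran from 166 to 687 CPM over the cells of batch 3, and in batch 4 from 0 to 54.9 CPM. For Fos in batches 3 and 4 and Ier2 in batch 3, no cell was without the gene. With cells under 10000 UMI left out, the 16 index values had a median of 1.21 (range 0.444 to 4.92).

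**Figure D3:**
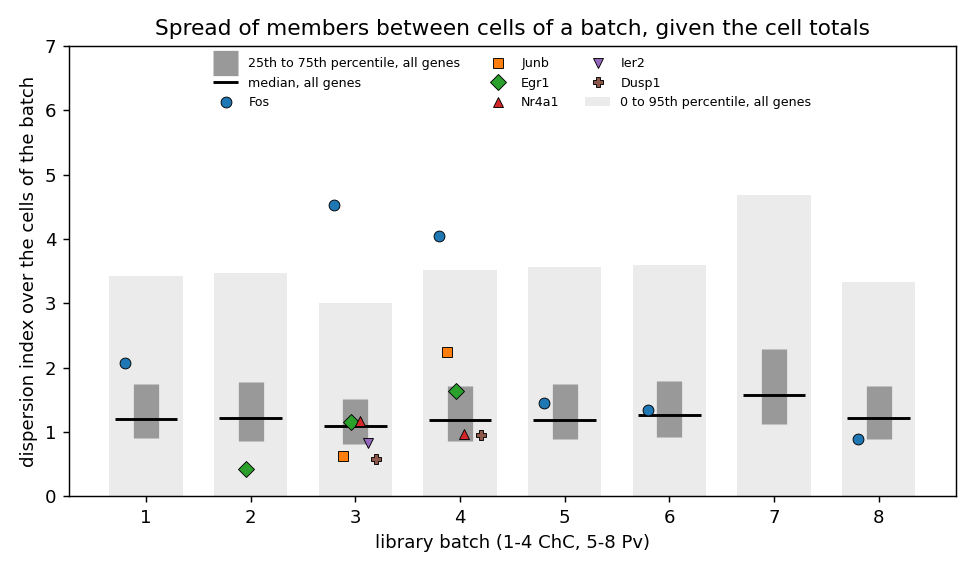
The dispersion index of members with at least 100 UMI in a batch (markers) is plotted by library batch beside all genes that reached 100 UMI there, given as median (line), 25th to 75th percentile (dark bar) and 0 to 95th percentile (light bar). Fos, with 7207 and 2355 UMI, lies above the 95th percentile in batches 3 and 4, and other members lie between 0.420 and 2.24.

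The share of the CPM of a gene held by its 5 highest cells ordered the members differently from the index, and it pools the batches of a cell type. A gene with few UMI can be in few cells only, so this share also depends on the UMI of a gene. Its place beside the median of all genes is thus no measure of relative spread. Over 63 ChC cells, 5 cells held 17.1% of the CPM of Fos, 18.02% of Egr1 and 17.01% of Dusp1, where the median over 9305 genes was 36.3%. Ier2, which was mainly in batch 3, had 40.4% in 5 ChC cells, and Fosb and Npas4 had 54.2% and 50.8%. In Pv cells 5 cells held 21.9% of Fos (median over 9299 genes 35.9%), 53.1% of Nr4a1, 56.5% of Dusp1 and 91.7% of Egr1, which had 6 UMI there.

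Correlation between members over the cells of a batch was weak. For Fos, Junb, Egr1, Nr4a1 and Dusp1, the members with a UMI in at least 25% of all cells, the median Spearman correlation of CPM over 10 pairs was 0.0679 (SD between batches 0.239), each pair averaged over the batches where both genes had counts. The same median over 43333105 pairs of 9310 genes was 0.0516. Pair means ran from -0.0651 for Egr1 and Nr4a1 (4 batches) to 0.177 for Junb and Dusp1 (4 batches), inside the 5th and 95th percentiles of all pairs of genes, -0.127 and 0.235. With UMI in place of CPM, that is without division by the cell total, the median over member pairs was 0.693, and without cells under 10000 UMI it was -0.104. No median over all pairs of genes stands beside these values, so they do not compare the members with other genes. In sparse counts the weak correlations of CPM do not separate the members from other genes.

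Genes most like each member were taken by the mean within-batch Spearman correlation among 9309 other genes. As the 3 highest of 9309 values, they lie above the 95th percentile over genes by selection, and some rest on 1 or 2 batches. Whether they go with the members beyond sampling was not tested. For Fos these were Insig1 (0.491, 4 batches), Rspo3 (0.491, 5 batches) and Chmp3 (0.452, 7 batches), where the 95th percentile over genes was 0.239. Egr1 had C030048B08Rik (0.481), Hexim1 (0.477) and 1700109H08Rik (0.460), each over 4 batches. Junb had Atpaf2 (0.681, 2 batches), Cenpo (0.511, 3 batches) and Yrdc (0.506, 3 batches). For Nr4a1 they were Lemd2 (0.678, 1 batch), Ppp1r3f (0.508, 4 batches) and Zfp161 (0.498, 2 batches), and for Dusp1 Kdelc1 (0.550, 3 batches), Kcng2 (0.491, 4 batches) and Tab2 (0.480, 3 batches). No member was among the 3 genes most like another member. Only 5 members were ranked, each against 9309 other genes, so this absence says little of them.

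A list of 38 other immediate early genes was described in the same way. Of these, 29 had counts, and Egr2, Egr3, Nr4a2, Nr4a3, Atf3, Klf2, Maff, Dusp5 and Ptgs2 were at 0 in all cells. Of the 16 tested over animals by edgeR, 0 passed, and 4 had an unadjusted p under 0.05, all higher in ChC, as were 3.61% of all genes tested: Egr4, Ier3, Ppp1r15a and Tiparp. The median log2 fold change of the 16 was 2.36, beside 0.04 over all genes tested. Per1, a clock gene and the highest of the list in mean CPM, was at 136, 100.3, 101 and 122 CPM in ChC batches and at 4.38, 0, 362 and 19.5 CPM in Pv batches. Jun, which pairs with Fos proteins, was at 5.68, 24.3, 57.6 and 177 CPM in ChC batches and at 0, 0, 189 and 0 CPM in Pv batches. Egr4, a relative of Egr1, was at 13.3, 209.7, 17.9 and 190 CPM in ChC batches and at 0, 9.97, 2.70 and 20.6 CPM in Pv batches. Batch 7, where Fos was at 0, had the highest Jun and Per1 values of all batches. Jund was the only one of the 29 genes with counts whose ChC batches all lay above its Pv batches, against 1.58% of all genes, so this count says nothing of the list.

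Late activity genes, which neurons induce after the immediate early genes, had 0 calls among 4 genes tested between the cell types. The highest in mean CPM were Rgs2, Scg2 and Homer1. Rgs2, a regulator of G protein signaling, was at 0, 22.8, 88.0 and 311 CPM in ChC batches and at 162, 275, 791 and 334 CPM in Pv batches. Scg2, a granin of secretory vesicles, ran from 187 to 330 CPM in ChC and from 61.3 to 279 CPM in Pv batches. For Homer1, transcript NM_011982 had 21 UMI and transcripts NM_147176 and NM_152134 had 893 UMI each, with the same counts in every batch. With its transcripts summed, Homer1 was at 34.1, 82.1, 326 and 200 CPM in ChC batches and at 4.38, 27.9, 667 and 288 CPM in Pv batches. By DESeq2 it was among the 93 genes called between the Pv animals, and by edgeR it was not called. These summed values rest almost wholly on NM_147176 and NM_152134, and can count the same molecules more than once. They say nothing of NM_011982, the shortest of the transcripts, and the transcripts were not tested apart. The median log2 fold change of the 4 genes was -0.22.

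Factors upstream of the members had counts in both cell types except Crtc2, a coactivator of CREB, which was at 16.3 CPM in batch 8 and at 0 in the other 7 batches. All 15 had counts in some batch, 13 were tested between the cell types, 0 passed, and their median log2 fold change was 0.07. Their summed level lay between 1774 and 2982 CPM over the 8 batches. Mef2c, an activity-regulated transcription factor, was the highest in mean CPM, at 804 to 1058 CPM in ChC and 568 to 1306 CPM in Pv batches. Mkl2, a coactivator of SRF, was at 235 to 719 CPM in ChC and 99.7 to 694 CPM in Pv batches. Creb1 and Elk4 had an unadjusted p under 0.05 and were higher in Pv, as were 2.66% of the genes tested, and neither passed the adjusted test. Creb1 was at 3.79, 18.2, 10.01 and 21.4 CPM in ChC batches and at 361, 255, 8.10 and 17.4 CPM in Pv batches, so it was high in animal 3 and within the ChC range in animal 4. By DESeq2 Creb1 was among the 93 genes called between the Pv animals, and by edgeR it was not called. Elk4 was at 3.79, 3.04, 10.4 and 19.1 CPM in ChC batches and at 8.76, 106, 18.9 and 167 CPM in Pv batches, and the cell types overlapped.

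Heat shock and stress genes, some of which are known to rise when tissue is taken apart, were described beside the members. Their 17 genes summed to 4349, 4582, 4491 and 4404 CPM in ChC batches and to 12742, 9417, 4367 and 9010 CPM in Pv batches. The 3 highest in mean CPM were Hspa8, Hsp90ab1 and Hsp90aa1. Hspa8, a constitutive chaperone, was at 883, 679, 1339 and 1061 CPM in ChC and at 3941, 3417, 1604 and 3223 CPM in Pv batches, with a fitted log2 ratio of ChC to Pv of -1.64 (SE 0.46, adjusted p = 0.598). Hspa8, Hspd1, Hsph1 and Mt1 had all Pv batches above all ChC batches, 4 of the 15 with counts, against 1.49% of the 16531 genes. Of 13 tested, 0 passed, and the median log2 fold change was -0.82. The inducible Hspa1a was at 51.02 CPM in batch 8 and at or under 0.765 CPM elsewhere, Hspa1b was at or under 6.90 CPM in every batch, and Hspb1 and Socs3 had no count. Over the cells of a batch, the Spearman correlation between the summed CPM of the members and of these genes had a mean of 0.0890 (SD 0.354, range -0.485 to 0.524, n = 8 batches). Whether activity in the animal or handling of the tissue set the levels of the members was not tested.

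Markers of other cell types differed between batches. Pyramidal neuron markers summed to 9.47, 45.6, 4.49 and 86.4 CPM in ChC batches and to 10.95, 1.99, 335 and 27.1 CPM in Pv batches, with 3 of 5 genes detected, Slc17a7 the highest in mean CPM over the batches and Neurod6 and Tbr1 at 0. Astrocyte markers summed to 3.99 to 192 CPM, with Slc1a3 the highest in mean CPM and Gfap at 0. In batch 7, where Fos was at 0 and Jun and Per1 were at their highest, Slc17a7 was at 297 CPM. Oligodendrocyte markers summed to 1.99 to 232 CPM, with Mbp the highest in mean CPM and Mobp at 0, and precursor markers to 0 to 30.4 CPM, with Cspg4 at 0. Mbp was at 0, 4.56, 127 and 164 CPM in ChC batches and at 0, 0, 219 and 98.8 CPM in Pv batches, so it moved with the animals in both cell types. Animals 1 and 3 were in lane 1 and animals 2 and 4 in lane 2, so Mbp also went with lane number, whose part was not tested. By DESeq2 Mbp was called between the ChC animals (adjusted p = 0.0335) and between the Pv animals (adjusted p = 0.0129), and by edgeR in neither (adjusted p = 0.690 and 0.626). The part of RNA of other cells in the differences between animals and in batch 7 was not tested. Microglia markers, 5 of 6 detected, summed to 87.2 CPM in batch 4 and to at most 16.2 CPM in the others, with P2ry12 the highest in mean CPM and C1qa at 0. Microglia are known for strong immediate early responses to dissociation, and the part of such RNA in the ChC values of batch 4 was not tested. Endothelial markers summed to 4.38 to 18.9 CPM with Cldn5 at 0, and fibroblast and mural markers to 0 to 109 CPM, highest in batch 8, with Col1a1 at 0.

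Because several members were high in the same batches, their promoters were searched for short motifs. RefSeq windows of the GRCm38.p6 build were at hand for 7 of the 10 members, with 7 windows for Bdnf, and none for Egr1, Arc and Ier2. The search covered the 250 bases before each start on both strands, and the same window of all 32851 entries of the table. The core of the CRE, TGACG, was found in 7 of the 13 member windows and in 17.8% of all windows. For Bdnf it was in 1 of 7 windows, and the other 6 members had 1 window each. The full CRE, TGACGTCA, which contains TGACG, was found for Dusp1 only, and in 1.55% of all windows. TATAAA was found for Fos only (12.4% of windows), and the AP-1 site TGAGTCA (4.46%) and the CArG box that SRF binds (1.47%) were found in no member window. Bases farther from the start, and Egr1, Arc and Ier2, were not searched, so this does not show that the members lack such sites. These are matches of letters and do not show binding.

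Below are the windows of Fos, Junb, Nr4a1 and Dusp1, the members with the most UMI among those with an entry, 5′ to 3′ on the strand of the gene. Capitals mark TGACG, its reverse complement CGTCA and TGACGTCA. The Fos window is chr12:85473640-85473889 (plus strand), with cores that begin 129 and 66 bases before the start and TATAAA 33 bases before it. The Junb window is chr8:84978749-84978998 (minus strand), with 1 core 106 bases before the start. The Nr4a1 window is chr15:101266596-101266845 (plus strand), with 4 cores, all on the opposite strand. The Dusp1 window is chr17:26508473-26508722 (minus strand), with the full site 143 bases before the start and a core 191 bases before it.
Fos: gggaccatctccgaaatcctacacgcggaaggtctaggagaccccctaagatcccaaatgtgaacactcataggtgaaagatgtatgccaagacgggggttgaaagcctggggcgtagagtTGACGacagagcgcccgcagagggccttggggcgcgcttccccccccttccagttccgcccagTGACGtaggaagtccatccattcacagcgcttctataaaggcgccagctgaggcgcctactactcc
Junb: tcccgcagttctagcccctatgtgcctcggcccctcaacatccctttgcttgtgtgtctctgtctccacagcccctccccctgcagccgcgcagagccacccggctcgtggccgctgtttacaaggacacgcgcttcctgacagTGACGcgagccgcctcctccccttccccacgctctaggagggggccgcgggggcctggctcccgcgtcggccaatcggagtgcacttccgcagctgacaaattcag
Nr4a1: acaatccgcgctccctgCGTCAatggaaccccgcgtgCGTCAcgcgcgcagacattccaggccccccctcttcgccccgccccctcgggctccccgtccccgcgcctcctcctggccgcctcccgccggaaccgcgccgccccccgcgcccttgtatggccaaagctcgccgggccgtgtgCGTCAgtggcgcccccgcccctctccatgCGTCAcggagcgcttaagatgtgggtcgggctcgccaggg
Dusp1: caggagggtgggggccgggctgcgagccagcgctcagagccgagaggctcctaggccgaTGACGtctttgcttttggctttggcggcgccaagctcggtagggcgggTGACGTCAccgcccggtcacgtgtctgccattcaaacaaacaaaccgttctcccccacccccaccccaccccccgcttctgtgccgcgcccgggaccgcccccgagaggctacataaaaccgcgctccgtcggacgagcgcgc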

How the data were processed

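The deposited table holds counts of unique molecules (UMI) per transcript and cell, made by the authors with 2 rounds of linear amplification, random tags, Bowtie 0.12.7 and the mm9 build. Transcripts were summed per gene name, 2 cell columns without a count were left out, and no 2 cells had identical counts. Cells were summed per library batch for levels and per animal for tests. Cell types were compared over animals and animals over batches with edgeR 4.0.16 (quasi-likelihood, TMM factors, filterByExpr) in R 4.3.3, with Benjamini-Hochberg adjustment over all genes tested and a threshold of 0.05. DESeq2 1.42.0, no filter, no TMM factors, the transcript with the most UMI, equal weights for cells (limma 3.58.1 on log2 of mean CPM + 1), removal of cells under 10000 UMI, batches as samples and removal of each animal or batch were alternatives. Fits were tested on simulated data of the same size, where edgeR called few of the changed genes. Detection was compared after thinning to 10000 UMI (5000 as an alternative). A count of 0 was given a limit of 3 counts. Depth was 370238 to 2898413 UMI per batch. Named genes were the members, the 3 genes most like each member with a UMI in at least 25% of cells, and from each fixed list the genes called (at most 5 per comparison) and the 3 highest in mean CPM, with the label checks and markers. One more gene that meets this rule is not reported here. Jund, Ier3, Ppp1r15a, Tiparp, Creb1, Crtc2, Elk4, Hspd1, Hsph1, Mt1, Hspa1a and Hspa1b were named after their values were seen. The members and lists were chosen with earlier results of these data known. Python 3.11.15, numpy 2.4.6, scipy 1.17.1, pandas 2.3.3 and matplotlib 3.10.9 were used.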

Additional observations from a re-analysis of the deposited data

Results flagged for a closer look

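In 6 of 17 groups of 4 batches, 1 batch lay far from the others by Dixon's criterion, which chance meets in about 1 in 20 groups of continuous values. That rate does not hold for counts at the floor: a group with 1 batch above 0 and 3 at 0 always meets the criterion, as Junb, Npas4 and Fosb did in Pv batches. Ier2 in ChC batch 3 was at 241 CPM, where the other ChC batches were at or under 20.6 CPM. The other 5 were Pv batches with counts beside batches at or near 0: Egr1 at 13.5 CPM, Arc at 18.9 CPM and Junb at 5.40 CPM in batch 7, Npas4 at 6.51 CPM in batch 8 and Fosb at 4.38 CPM in batch 5. Junb and Fosb had 2 UMI each there. The causes were not tested.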

How the results depend on the processing

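For ChC against Pv animals, where edgeR called 0 genes (616 at an unadjusted p under 0.05), DESeq2 called 174, edgeR without a filter 80 and with batches as samples 5. Without 1 animal 7 to 100 genes were called, and with batches as samples and 1 left out 2 to 5, except 0 without batch 3. Between ChC animals DESeq2 called 97 genes and edgeR without a filter 3. Between Pv animals these were 93 and 11. The log2 fold change between ChC animals was -0.11 to 2.51 for Nr4a1 with 1 batch left out, negative without batch 4. Between Pv animals it was -3.31 to 3.55 for Arc without batch 5, 7 or 8, negative without batch 7, and 5.87 without batch 6. With the same batches left out it was for Dusp1 -6.07 (without batch 8) to 0.64 (without batch 7), 5.89 without batch 6 and 0.25 with cells weighted equally. Junb between Pv animals without batch 7 gave no value, because it was then at 0 in both. Over all alternatives the ChC over Pv log2 ratio ran from 1.04 to 4.21 for Fos, 5.53 to 11.66 for Egr1, 5.00 to 10.02 for Junb, 3.30 to 4.54 for Dusp1, 1.93 to 8.05 for Npas4 and 2.03 to 10.79 for Nr4a1. Without thinning, members per cell were 5.67 in ChC and 1.49 in Pv. With 1 batch left out they ran from 3.43 to 4.61 and from 0.935 to 1.22. The median correlation between members was 0.693 for UMI without division by the cell total, and -0.0183 to 0.190 with 1 batch left out. A lone animal of a cell type was assumed to vary like the others. The causes of these changes were not tested. Depth limits what can be said of members at or near 0 in Pv batches.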
